A study of Mus musculus with 16 samples.

Results

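The Ly6 set examined here comprises 9 mouse genes of the Ly6/uPAR superfamily, Ly6a, Ly6c1, Ly6d, Ly6e, Ly6k, Ly6g6c, Ly6g6d, Slurp1 and Lypd3. The rule that selects them uses gene names alone, although the list was drawn up with earlier results of these data known. They were found on the array as the probes whose gene name in the scanner files equals a member, which gave 10 of the 55681 probes. All 9 genes passed the filter on dim probes and stand among 31524 gene rows. Each gene was read from its probe with the highest mean level over 16 arrays, and Ly6c1 is the only member with a further probe.

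Proteins of the Ly6/uPAR superfamily carry a small disulfide-bonded fold of 3 loops. Most are held on the outer face of the cell membrane by a glycosylphosphatidylinositol anchor, while a few, such as Slurp1, are secreted. Ly6a encodes Sca1, an antigen used to sort stem and progenitor cells in many mouse tissues. In skin, Sca1 is carried by interfollicular and infundibular keratinocytes and is low on the bulge, the part of the follicle that holds its stem cells. Several relatives are known in stratified epithelium as surface antigens of keratinocytes, and SLURP1 is mutated in an inherited disorder of the palms and soles.

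Hair follicle stem cells (HFSC) and interfollicular epidermis (IFE) were sorted from mouse skin and profiled on one-colour Agilent arrays, with 1 array for each of 16 groups. HFSC arrays come in pairs named tHFSC and aHFSC, abbreviations that the labels do not spell out. The pairs cover 6 conditions. The first is young control, labelled WT (C57BL/6). Young Col17a1-cKO carries Col17a1 flox/flox with K15crePR, and young aPKC-cKO carries aPKCλ flox/flox with K15crePR. Cre driven by the K15 promoter acts in bulge cells and not in the whole epidermis. The others are young hCOL17A1 (transgenic for human COL17A1, with no promoter named in the labels used here), aged WT and aged hCOL17A1. IFE was profiled as young WT, young hCOL17A1, aged WT and aged hCOL17A1. Young mice were 12 weeks old and aged mice 25 to 26 months old. The labels give RU486, the inducer of crePR, at 2.5 mg for 5 days from 8 weeks for the control, Col17a1-cKO and aPKC-cKO arrays. They give plucking of the hair, 3 days, for the aHFSC arrays of control and Col17a1-cKO mice. RU486 is not named for the hCOL17A1, aged and IFE samples themselves, nor plucking for the other aHFSC samples; a protocol text shared by all samples mentions both. Whether an array holds cells of 1 mouse or of several is not given in the labels, so p-values measure the scatter of these arrays around an additive fit and not the variation between animals.

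The HFSC gate took cells high in CD34 and ITGA6 that lacked Sca1, and the IFE gate took cells high in both ITGA6 and Sca1. The level of Ly6a in HFSC against IFE is therefore a check of the gate and not a finding. Cd34, the bulge marker used in the gate, lay between 3.54 and 6.44 on the 12 HFSC arrays and at -6.45, -3.86 and -5.08 on 3 IFE arrays. On the young hCOL17A1 IFE array Cd34 lay at 0.32, and the median r of that array with its 3 IFE companions was 0.921, against 0.975 to 0.976 for theirs. The aged hCOL17A1 aHFSC array also stood apart, with 59.1% of probes well above background, and its tHFSC partner had 68.8%, against 73.8% to 79.8% on the other 14 arrays. All 8 young HFSC arrays share slide 1, and the 4 aged HFSC arrays share slide 2 with IFE. Age and slide can therefore not be told apart in HFSC. Aged WT differs from young control in labelled RU486 as well, and its aHFSC array in labelled plucking. In the knockout arrays, Prkci, which encodes the targeted aPKC isoform, lay at 3.44 and 3.28 in aPKC-cKO against 4.25 and 4.37 in control, and Col17a1 at 6.75 and 5.97 in Col17a1-cKO against 7.02 and 6.17. The deleted exons were not set against the probes, so the Col17a1 probe may lie outside them. Levels are on a log2 scale on which the 75th percentile of each array is 0. A level is comparable between arrays for 1 probe, never between probes.

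The members sit in 3 places in the genome (mm9, as the scanner files give it). Of the 9 genes, 6 lie on chromosome 15, where their probes span 318 kb in the order Slurp1, Ly6d, Ly6k, Ly6e, Ly6a and Ly6c1. Ly6g6c and Ly6g6d lie next to each other on chromosome 17, with probes 1.48 kb apart from end to end, and Lypd3 lies on chromosome 7. Probes are 60 bases long. The central 30 bases, positions 16 to 45 of the probe, are shown for the members whose difference between HFSC and IFE passed the test, and for both Ly6c1 probes, since these disagree. Exon and UTR positions were not annotated here. Each line gives the stretch on its own strand, 5′ to 3′, in lower case.
Ly6a, chr15:74825568-74825597, minus strand: ctccaaggtgggagtagtgtgtgaaatacc
Ly6c1, probe used, chr15:74875510-74875539, minus strand: atccacacataagtatctggggtcctgcag
Ly6c1, other probe, chr15:74877800-74877829, minus strand: cgcctctgatggattctgcattgctcaaaa
Ly6d, chr15:74592566-74592595, minus strand: tggcttgtgtcccagcatggaagatggggg
Ly6e, chr15:74789607-74789636, plus strand: cttgtactctgttcaggaggctgcccatgg
Lypd3, chr7:25426004-25426033, plus strand: ctggtcgcctgtcttccttaggagactgtg

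Across the 16 arrays the members fell into 3 patterns of level. Ly6a, Ly6c1 and Ly6d were higher on all 4 IFE arrays than on any of the 12 HFSC arrays. The product of Ly6a set the gates, and the share of all genes with ranges apart in this way was not counted. Ly6e, Ly6g6c and Lypd3 were well above background on every array that has a flag, with IFE and HFSC ranges that overlap. Ly6k, Ly6g6d and Slurp1 were dim, at or near background on several arrays.

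**Figure D1:**
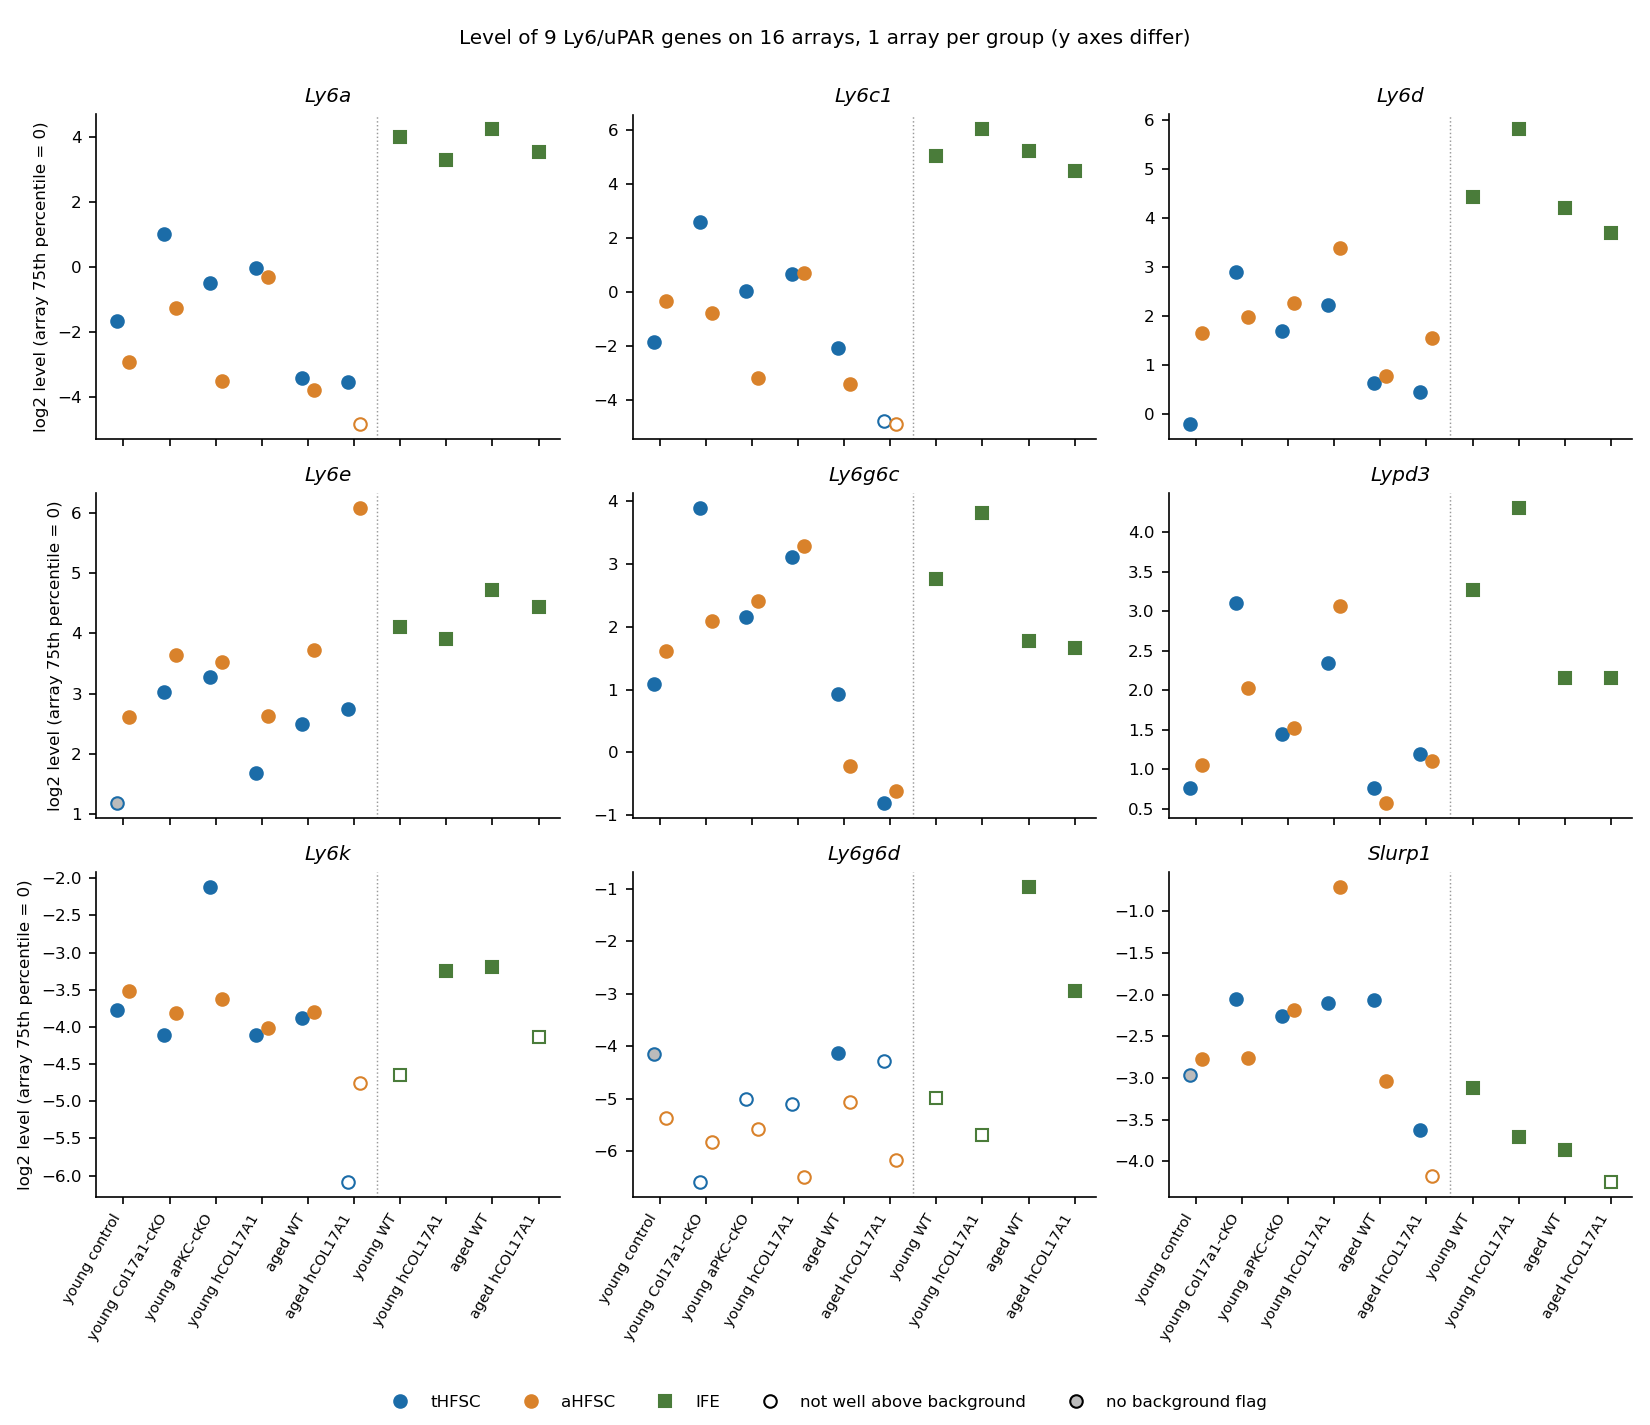
Level of the 9 genes (y axis, log2, with the 75th percentile of the array at 0) in the 6 HFSC conditions and 4 IFE groups (x axis), 1 point per array: blue circles are tHFSC, orange circles aHFSC and green squares IFE, open points were not well above background and grey points have no background flag. The IFE points of Ly6a, from 3.28 to 4.23, lie above every HFSC point, of which the highest is 1.02.

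Ly6a stood at 3.99 in young WT, 3.28 in young hCOL17A1, 4.23 in aged WT and 3.52 in aged hCOL17A1 IFE. In tHFSC it lay at -1.67 in young control, 1.02 in Col17a1-cKO, -0.51 in aPKC-cKO, -0.05 in young hCOL17A1, -3.42 in aged WT and -3.55 in aged hCOL17A1. In aHFSC, in the same order, it lay at -2.92, -1.27, -3.50, -0.33, -3.78 and -4.85, the last not well above background. Among cells gated as lacking Sca1, the transcript thus ranged from -4.85 to 1.02 between arrays, and the 5 lowest were the 4 aged arrays and aPKC-cKO aHFSC. In the order of its 16 levels, 4 of the 15 steps between neighbours exceeded the fitted SD of a difference between 2 arrays, which is 0.88. The widest step, 2.26, separates IFE from HFSC.

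Ly6c1, known as a surface antigen of monocytes, endothelium and T cells, had the widest range of the members, 10.94. On IFE arrays it stood at 5.04 in young WT, 6.03 in young hCOL17A1, 5.24 in aged WT and 4.48 in aged hCOL17A1. In tHFSC it lay at -1.86 in young control, 2.60 in Col17a1-cKO, 0.02 in aPKC-cKO, 0.66 in young hCOL17A1, -2.07 in aged WT and -4.80 in aged hCOL17A1. In aHFSC, in the same order, it lay at -0.32, -0.78, -3.20, 0.69, -3.40 and -4.91. Both aged hCOL17A1 HFSC values were not well above background. Its second probe, 2.29 kb away, was nearly flat, from -0.89 to 1.14 with an SD over arrays of 0.585 against 3.59 for the probe used. The 4 IFE arrays were still its highest, at 0.90, 0.90, 1.14 and 0.71. The array names no probe for Ly6c2, a near-identical neighbour of Ly6c1, so signal from either gene could not be told apart here.

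Ly6d, a keratinocyte antigen that also marks early B-lineage cells, stood at 4.44 in young WT, 5.82 in young hCOL17A1, 4.22 in aged WT and 3.71 in aged hCOL17A1 IFE. In tHFSC it lay at -0.21 in young control, 2.90 in Col17a1-cKO, 1.70 in aPKC-cKO, 2.22 in young hCOL17A1, 0.63 in aged WT and 0.45 in aged hCOL17A1. In aHFSC, in the same order, it lay at 1.65, 1.99, 2.28, 3.39, 0.78 and 1.55. Unlike Ly6a it was well above background on all 16 arrays, and the lowest of them was the young control tHFSC array. Of 15 neighbouring steps in its order only 1 exceeded the SD of a difference (0.91).

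Ly6e, an interferon-inducible member best known in virus entry and in placental fusion, had levels from 3.91 to 4.73 in IFE. In tHFSC it lay at 1.18 in young control, 3.03 in Col17a1-cKO, 3.28 in aPKC-cKO, 1.68 in young hCOL17A1, 2.50 in aged WT and 2.75 in aged hCOL17A1. In aHFSC, in the same order, it lay at 2.62, 3.64, 3.53, 2.63, 3.72 and 6.08. The highest of all 16 levels was thus in aged hCOL17A1 aHFSC, 1.36 above the next, on the array with the fewest probes above background. The lowest, in young control tHFSC, came from the deposited value table, because that array's scanner file held 46417 of the probes and not this one; it has no background flag.

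Ly6g6c, from the Ly6 cluster of the major histocompatibility region, stood at 2.77 in young WT, 3.81 in young hCOL17A1, 1.77 in aged WT and 1.67 in aged hCOL17A1 IFE. In the 8 young HFSC arrays it ranged from 1.09 to 3.89, with the top value in Col17a1-cKO tHFSC. In the 4 aged HFSC arrays it ranged from -0.81 to 0.93, so that the young and aged HFSC ranges did not overlap. The share of all genes with these ranges apart was not counted. The young and aged arrays are also the arrays of slide 1 and slide 2.

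Lypd3, which encodes the C4.4A adhesion protein of suprabasal keratinocytes, stood at 3.26 in young WT, 4.30 in young hCOL17A1, 2.16 in aged WT and 2.15 in aged hCOL17A1 IFE. In tHFSC it lay at 0.76 in young control, 3.10 in Col17a1-cKO, 1.45 in aPKC-cKO, 2.35 in young hCOL17A1, 0.76 in aged WT and 1.19 in aged hCOL17A1. In aHFSC, in the same order, it lay at 1.05, 2.03, 1.52, 3.07, 0.57 and 1.11. Young control and aged arrays filled the low end of the HFSC range, and Col17a1-cKO and young hCOL17A1 arrays the high end.

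Slurp1, a secreted member that acts on nicotinic acetylcholine receptors, was the only one with lower means in IFE than in HFSC, from -4.25 to -3.12 in IFE and from -4.18 to -0.71 in HFSC. Its highest level was in young hCOL17A1 aHFSC, 1.34 above the next. Ly6k, known mainly from testis, ranged from -6.09 to -2.12 over all 16 arrays and was well above background on 12 of them. Ly6g6d was well above background on 3 of the 15 arrays with a flag, aged WT IFE (-0.97), aged hCOL17A1 IFE (-2.95) and aged WT tHFSC (-4.12), and lay between -6.59 and -4.15 on the others. The young control tHFSC values of Ly6e, Slurp1 (-2.96) and Ly6g6d (-4.15) were taken from the value table.

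The populations were compared in 1 limma fit over all 16 arrays, over wild-type or control and hCOL17A1 groups of both ages, with Benjamini-Hochberg adjustment over all genes and a threshold of 0.05. In tHFSC minus IFE, 5 of the 9 members were called, all lower in tHFSC, where 6.44% of all genes were called and 4.33% were called lower. In aHFSC minus IFE, 4 of 9 were called, again all lower, where 4.32% of all genes were called and 2.68% were called lower. Without Ly6a, whose product set the gates, 4 of 8 members were called in tHFSC and 3 of 8 in aHFSC. The members' median difference was -1.59 and -1.63 (-1.45 and -1.62 without Ly6a), beside -0.05 and -0.14 for all genes. With quantile normalization in place of the 75th percentile, the calls over all genes split as 814 higher and 919 lower against 666 and 1365 for tHFSC, and as 606 and 608 against 516 and 845 for aHFSC.

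Ly6a, the gate gene, was 49.2-fold lower in tHFSC than in IFE (log2 difference -5.62, SE 0.42, limma adjusted p = 0.000231) and 131-fold lower in aHFSC (-7.04, SE 0.42, adjusted p = 0.000103). Both differences are much larger than the scatter of the arrays, and no HFSC array reached the IFE range. Ly6c1 was 101-fold lower in tHFSC (-6.66, SE 0.75, adjusted p = 0.00203) and 213-fold lower in aHFSC (-7.74, SE 0.75, adjusted p = 0.00103), with the pairs from -9.39 to -5.35. The probe was well above background on 3 of 4 arrays in each HFSC population, so both folds are in part measured against background. Read from the second probe alone, the Ly6c1 difference was -0.95 in tHFSC (limma adjusted p = 0.0539) and -1.16 in aHFSC. That probe is what remains when only probes above background on all arrays are kept. There the call was lost in tHFSC and kept in aHFSC. The size of the Ly6c1 difference is therefore that of 1 probe.

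Ly6d was 11.9-fold lower in tHFSC (-3.57, SE 0.44, adjusted p = 0.00291) and 7.53-fold lower in aHFSC (-2.91, SE 0.44, adjusted p = 0.00808), lower in 4 of 4 pairs each time and with no overlap of the ranges. Lypd3 was 3.01-fold lower in tHFSC (-1.59, SE 0.29, adjusted p = 0.0154) and 3.1-fold lower in aHFSC (-1.63, SE 0.29, adjusted p = 0.0177), again in 4 of 4 pairs although the HFSC and IFE ranges overlap: aged IFE stood at 2.16 and 2.15, below young hCOL17A1 HFSC at 2.35 and 3.07. Ly6e was 4.14-fold lower in tHFSC (-2.05, SE 0.41, adjusted p = 0.0227), in 4 of 4 pairs. In aHFSC its difference was -0.75 (SE 0.41, adjusted p = 0.401), with 1 pair at 1.65.

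The other members were not called. Ly6g6c differed by -1.31 in tHFSC (SE 0.40, adjusted p = 0.0967) and by -1.60 in aHFSC (SE 0.40, adjusted p = 0.0631), lower in 4 of 4 pairs both times. Ly6g6d differed by -1.88 in aHFSC (SE 0.45). It was well above background on none of 4 HFSC arrays and on 2 of 4 IFE arrays, both of them aged, so that the value rests on aged IFE. Without these arrays its probe would not have passed the filter, so the value is a description with no test. In tHFSC the Ly6g6d difference was -1.0. Slurp1 differed the other way, by 1.11 in tHFSC (SE 0.36, adjusted p = 0.117) and 1.01 in aHFSC (SE 0.36, adjusted p = 0.181), higher in 4 of 4 pairs. Ly6k differed by -0.49 and -0.39, within its scatter (SE 0.47).

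**Figure D2:**
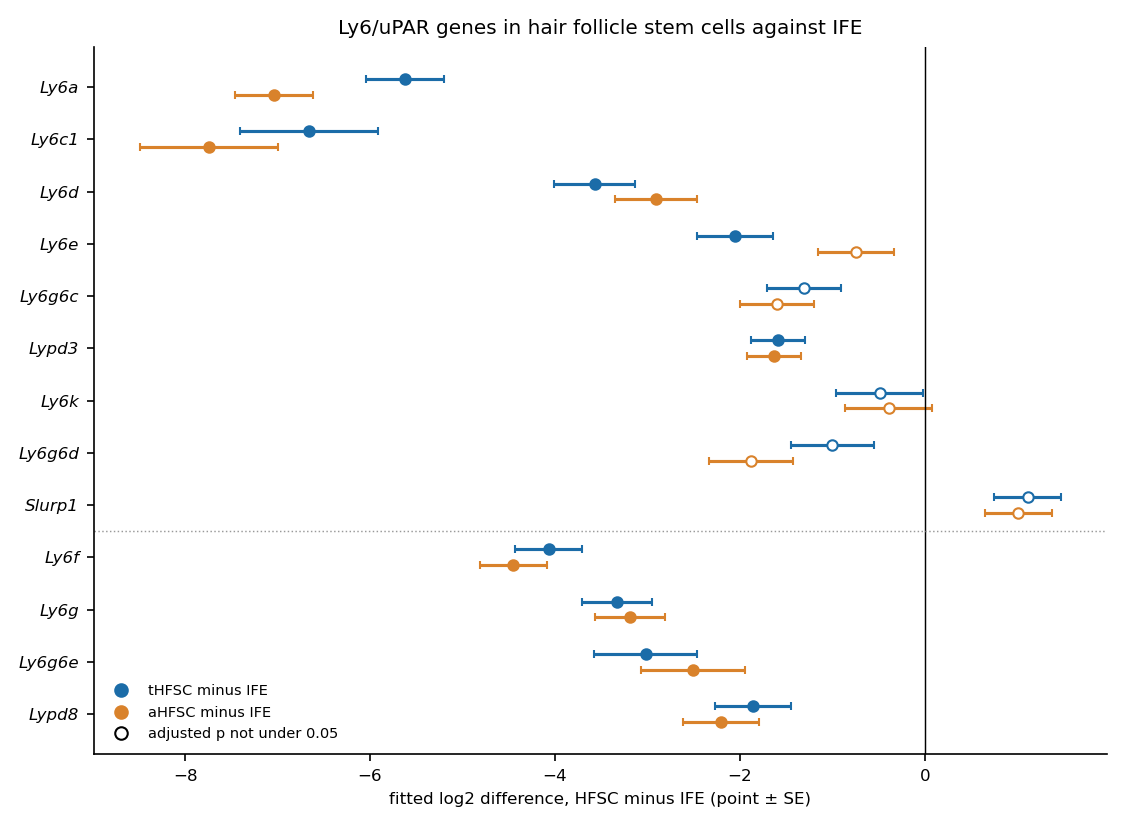
Fitted log2 difference between HFSC and IFE (x axis, point and SE) for the 9 members and, under the dotted line, 4 relatives from the wider family, in tHFSC (blue) and aHFSC (orange); open points did not pass the adjusted threshold. Ly6a and Ly6c1 lie farthest to the left, at -5.62 to -7.74, and Slurp1 is the only gene to the right of 0.

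HFSC arrays of young mice and IFE arrays lie on different slides, and the number of calls changed with how slide was treated. With slide as a block, the number of members called fell from 5 to 1 in tHFSC (Ly6a) and from 4 to 2 in aHFSC (Ly6a and Ly6c1), where the calls over all genes fell from 2031 to 143 and from 1361 to 180. Within slide 2 alone, which holds aged HFSC and all IFE arrays, Ly6a and Ly6c1 were called in both comparisons. Ly6d then differed by -3.42 in tHFSC (adjusted p = 0.121) and -2.80 in aHFSC (adjusted p = 0.204), Lypd3 by -1.18 and -1.32, and Ly6e by -1.96 in tHFSC (adjusted p = 0.33). Leaving out the young control tHFSC, the young hCOL17A1 IFE or the aged WT IFE array brought the tHFSC count from 5 to 3. Leaving out either of those IFE arrays brought the aHFSC count from 4 to 2. Ly6a and Ly6c1 were still called without any of these arrays.

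Markers of other cells were read on the same arrays as summed linear levels, with the 75th percentile of the array as 1. The T cell list (8 of 8 genes measured) summed to 3.34 to 11.5 on HFSC arrays and 19.5 to 31.4 on IFE arrays. The fibroblast list (5 of 7 genes measured) summed to 1.55 to 11.2 and 13.4 to 28, and Thy1 is in both lists. By gene, 4 of 5 fibroblast genes were higher in tHFSC and in aHFSC than in IFE (medians 0.84 and 0.32). In each comparison 1 of them was called higher and 1 lower. Of the T cell genes 5 of 8 were higher in tHFSC and 1 of 8 in aHFSC (medians 0.05 and -0.43), with 1 called lower each time. The endothelial list (5 of 8 measured) summed to 4.25 to 5.92 and 3.82 to 5.66, and the Langerhans and myeloid list to 273 to 384 and 301 to 545. The basal keratinocyte list was 848 to 1280 in HFSC and 1470 to 1610 in IFE. Of its 6 genes, 3 were called lower in tHFSC and 5 in aHFSC, with none higher and medians of -0.60 and -0.75. The differentiated keratinocyte list was 46.3 to 842 in HFSC and 251 to 629 in IFE. Of its 14 genes, 4 were called lower in tHFSC with none higher, and 4 lower with 1 higher in aHFSC, with medians of -0.05 and 0.25. Thy1 lay between 3.67 and 4.79 in IFE and between -2.96 and 1.79 in HFSC, while Cd3e, which defines T cells, overlapped, from -1.06 to 0.71 in IFE and from -1.44 to 0.99 in HFSC. Pecam1, which defines endothelium, lay between -3.35 and -2.49 on all 16 arrays. The part of other cells in the Ly6a, Ly6c1 and Ly6d differences was not tested, and fewer cells of a type and less transcript per cell cannot be told apart in sorted bulk RNA.

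A wider list of 31 Ly6/uPAR genes had 23 measured here. In both populations the same 4 of these 23 were called lower in HFSC than in IFE and none higher, where 4.33% of all genes were called lower in tHFSC and 2.68% in aHFSC. The list's median difference was -0.12 in tHFSC and -0.33 in aHFSC, beside -0.05 and -0.14 for all genes. The genes called were Ly6f (-4.07, SE 0.36, adjusted p = 0.000576 in tHFSC), Ly6g (-3.33, SE 0.38, adjusted p = 0.0021), Ly6g6e (-3.02, SE 0.56, adjusted p = 0.0161) and Lypd8 (-1.86, SE 0.41, adjusted p = 0.0327). In aHFSC the differences were -4.45 for Ly6f, -3.19 for Ly6g and -2.51 for Ly6g6e. Lypd8 was well above background on none of the 4 aHFSC arrays compared and on 1 of 4 tHFSC arrays; in aHFSC it was at least 3.12-fold lower (limma adjusted p = 0.0216). Over all 12 HFSC arrays, 10 were not well above background for Lypd8 and 3 for Ly6g6e, so that the differences are in part measured against background. Ly6f stood at -0.37, -0.82, -0.04 and -0.47 on the IFE arrays and between -6.15 and -2.53 on HFSC arrays, where 7 of 12 were not well above background. Ly6g, the granulocyte antigen of the family, lay between -2.45 and -0.68 in IFE and between -6.04 and -3.41 in HFSC, again with 7 of 12 not well above background. Probes of Ly6g and Ly6f lie on chromosome 15 at 74989023 and 75102462, beyond Ly6c1, and that of Ly6g6e on chromosome 17 at 35215564, beside Ly6g6d. Ly6a, Ly6c1, Ly6g and Ly6f are sequence relatives, so shared signal between their probes was not tested. Ly6h and Ly6i, from the same stretch of chromosome 15, had IFE levels within their HFSC range except for Ly6i in aged WT IFE, at -2.04 against a top HFSC level of -2.12.

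Of the 21 measured genes of an interferon-response list of 23, 3 were called lower in HFSC than in IFE in each population and none higher. They were Ifi202b (-5.71 in tHFSC and -5.10 in aHFSC), the antiviral synthetase gene Oas1a (-3.06 and -2.64) and the immunoproteasome subunit gene Psmb8 (-2.36 and -2.08). The list's median was -0.62 in tHFSC and -0.64 in aHFSC, beside -0.05 and -0.14 for all genes, of which 4.33% and 2.68% were called lower. Ly6a and Ly6e are known interferon targets in other cells. None of the 6 measured nicotinic receptor subunit genes, the known partners of secreted Ly6 proteins, was called in either comparison. The subunits were dim, with 3 to 5 of 6 well above background on any array.

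The contrast of aHFSC and tHFSC asks how the members differ between the 2 states within a condition. No member was called, where 0.539% of all genes were. Ly6a and Ly6e had the smallest p-values among members, with opposite signs. Ly6a was lower in aHFSC in 6 of 6 conditions, by -1.24 in young control, -2.29 in Col17a1-cKO, -2.99 in aPKC-cKO, -0.29 in young hCOL17A1, -0.36 in aged WT and -1.31 in aged hCOL17A1. The fitted difference was -1.41 (SE 0.36, limma unadjusted p = 0.00366, adjusted p = 0.148). The smallest and largest pair differ by more than the fitted difference itself, and the ranges of the 2 states overlap. In the same contrast 12 of 14 markers of differentiated keratinocytes were positive (median 0.26) and 4 of 5 fibroblast markers negative (median -0.43); their part was not tested.

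Ly6e was higher in aHFSC in 6 of 6 conditions, by 1.44 in young control, 0.61 in Col17a1-cKO, 0.25 in aPKC-cKO, 0.95 in young hCOL17A1, 1.22 in aged WT and 3.34 in aged hCOL17A1. The fitted difference was 1.30 (SE 0.35, limma unadjusted p = 0.00532, adjusted p = 0.172). The pair with the largest step includes the array with the fewest probes above background, and without that array the difference was 0.89 (SE 0.20, adjusted p = 0.123). In the young pairs on slide 1 it was 0.81 and in the pairs on slide 2 it was 2.28. The test of aged against young conditions gave 1.47 for Ly6e (SE 0.60, adjusted p = 0.799), with 0% of all genes called and 1956 at an unadjusted p under 0.05, and 0.41 without either array of the aged hCOL17A1 pair.

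Ly6c1 had no common sign. It differed by 1.54 in young control, -3.38 in Col17a1-cKO, -3.22 in aPKC-cKO, 0.02 in young hCOL17A1, -1.33 in aged WT and -0.11 in aged hCOL17A1, where both values are at background. Ly6d was higher in aHFSC in 5 of 6 conditions, at 0.66 (SE 0.37, adjusted p = 0.518). Ly6g6d differed by -0.88 (SE 0.38, adjusted p = 0.39) with no aHFSC array above background. Ly6g6c, Slurp1, Lypd3 and Ly6k had fitted differences between -0.30 and 0.09, smaller than their SE of 0.25 to 0.40. In the wider list none was called, and the smallest p-values belonged to Cd59a (-0.73, adjusted p = 0.342), a complement inhibitor, and Slurp2 (0.43, adjusted p = 0.35), a secreted relative of Slurp1.

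**Figure D3:**
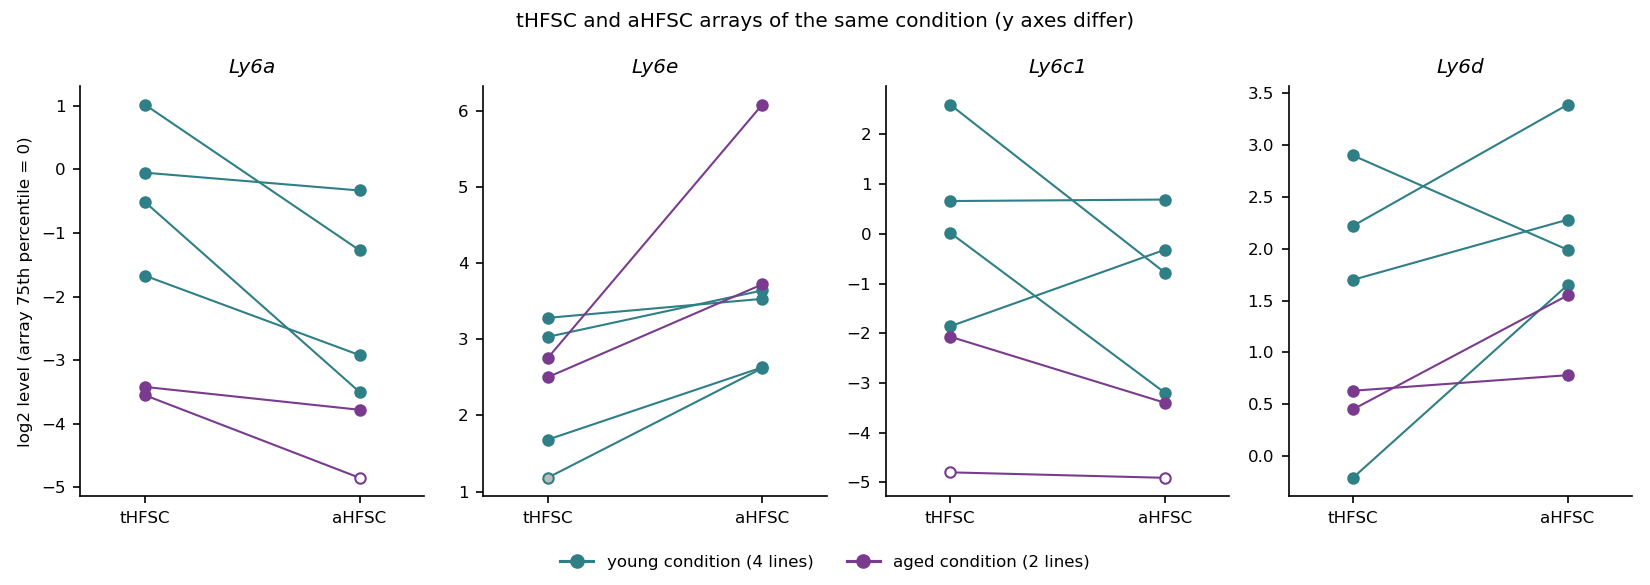
Levels of Ly6a, Ly6e, Ly6c1 and Ly6d (y axis, log2, 75th percentile of the array at 0) on the tHFSC and aHFSC arrays (x axis), with a line joining the 2 arrays of each condition, teal for young and purple for aged; open points were not well above background and the grey point has no background flag. All 6 lines slope down for Ly6a and up for Ly6e, while those of Ly6c1 and Ly6d go both ways.

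The knockouts and the transgene were each compared with the arrays they share a state with, 2 against 2. The Col17a1-cKO, aPKC-cKO, young hCOL17A1 and aged WT comparisons all use the same 2 young control arrays, so a high or low control level enters all of them. No gene of the 31524 was called in any of these comparisons (0% each). At an unadjusted limma p under 0.05 there were 1275, 1082, 2140 and 1586 genes, and for aged hCOL17A1 minus aged WT 3792. Without the aged hCOL17A1 tHFSC array the last comparison called 37 genes, and the others at most 3 without any 1 array. Of the young aHFSC arrays, control and Col17a1-cKO are labelled as plucked and aPKC-cKO and hCOL17A1 are not, so that plucking goes with genotype in the comparisons of the latter with control. The values that follow are descriptions of differences that did not pass.

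In Col17a1-cKO minus control, 7 of 9 members had positive differences and their median was 1.64, beside -0.09 for all genes. Ly6a differed by 2.17 (SE 0.62, limma unadjusted p = 0.00721, adjusted p = 1), Lypd3 by 1.66 (SE 0.43), Ly6d by 1.73 (SE 0.64), Ly6g6c by 1.64 (SE 0.59) and Ly6e by 1.44 (SE 0.61). In each of these 5 genes both pairs were positive and the 2 knockout arrays lay above the 2 control arrays. Slurp1, at 0.46 (SE 0.53) and with 1 pair at 0.01, separated in the same way. The share of all genes that separate in this way was not counted, so the number of members is not read as a result. Ly6c1 differed by 2.0, with 1 pair at 4.46 and the other at -0.46. In tHFSC the steps were larger than in aHFSC for each of these genes, for example 3.11 against 0.34 for Ly6d and 2.81 against 0.47 for Ly6g6c.

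In young hCOL17A1 minus control, again 7 of 9 were positive, with a median of 1.76 beside 0.01 for all genes. The differences were 2.10 for Ly6a (SE 0.62, limma unadjusted p = 0.00852, adjusted p = 0.53), 2.09 for Ly6d (SE 0.64), 1.85 for Ly6g6c (SE 0.59), 1.80 for Lypd3 (SE 0.43, unadjusted p = 0.00249, adjusted p = 0.451) and 1.46 for Slurp1 (SE 0.53). In these 5 genes both transgenic arrays lay above both controls, as they did for Ly6c1, which differed by 1.76 (SE 1.11). The share of all genes that do so was not counted. Ly6e differed by 0.25. RU486 was given for the control arrays and is not given for the transgenic ones, so the transgene and the treatment cannot be told apart here.

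In aPKC-cKO minus control the median of the members was 0.65. Ly6e differed by 1.51 (SE 0.61, limma unadjusted p = 0.0369, adjusted p = 1), with both aPKC-cKO arrays above both controls. Ly6d differed by 1.27 (SE 0.64), Ly6g6c by 0.93 (SE 0.59), Slurp1 by 0.65 (SE 0.53) and Lypd3 by 0.58 (SE 0.43). In each of these genes too, both aPKC-cKO arrays lay above both controls. The share of all genes that do so was not counted. Ly6a differed by 0.30 and Ly6c1 by -0.50, with 1 pair of each sign. Both knockouts were set against the same control tHFSC array, which holds the lowest Ly6d and Ly6e levels of the 16.

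In aged hCOL17A1 minus aged WT 6 of 9 members were negative, with a median of -0.63 beside -0.23 for all genes. Slurp1 differed by -1.36 (SE 0.53, limma unadjusted p = 0.0318, adjusted p = 0.373). Ly6c1 went from -2.07 and -3.40 in aged WT to background on both transgenic arrays, at least 2.77-fold lower (adjusted p = 0.476). Ly6k was also at background on both transgenic arrays (-1.58, SE 0.70, at least 1.28-fold lower, adjusted p = 0.418). Ly6e differed by 1.30 (SE 0.61). The 2 transgenic arrays are those with the fewest probes above background, and their part in these differences was not tested.

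The transgene difference of young HFSC minus that of aged HFSC was tested as a term of the same fit, a test added after the values had been seen. It was 2.92 for Ly6g6c (SE 0.83, limma unadjusted p = 0.00693, adjusted p = 0.36), 2.82 for Slurp1 (SE 0.75, adjusted p = 0.341), and 2.70 for Ly6a (SE 0.88, adjusted p = 0.395). For these 3 genes both young pairs were positive and both aged pairs negative, and the share of all genes with such signs was not counted. Ly6a and Slurp1 were each well above background on 1 of the 2 aged transgenic arrays, and Ly6c1, on neither, is given no value. No gene of the array passed (0%, with 3343 at an unadjusted limma p under 0.05), and the contrast joins age, slide, RU486 and plucking as labelled.

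In aged WT minus young control HFSC the members' median was -0.19. Ly6a differed by -1.31 (SE 0.62) and Ly6c1 by -1.65 (SE 1.11), Ly6g6c by -0.99 (SE 0.59) and Ly6e by 1.21 (SE 0.61), each with the same sign in both pairs and adjusted p = 0.999 by limma. Ly6d differed by -0.02, with pairs at 0.84 and -0.87.

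Markers of other cells were read in the same comparisons, none of them called. All 14 genes of the differentiated keratinocyte list had positive differences in Col17a1-cKO (median 1.01) and in young hCOL17A1 (median 1.27). Positive differences were held by 12 of 14 in aPKC-cKO (0.37), 1 of 14 in aged WT (-1.21) and 2 of 14 in aged hCOL17A1 (-1.60). The medians of all genes were, in the same order, -0.09, 0.01, 0.03, 0.00 and -0.23. In the aged WT and aged hCOL17A1 comparisons members had both signs, with Ly6e at 1.21 and 1.30 and Ly6a at -1.31 and -0.60. The summed linear level of the differentiated keratinocyte list was 188 and 332 on the control arrays, 574 and 333 in Col17a1-cKO and 202 and 453 in aPKC-cKO. It was 440 and 842 in young hCOL17A1, 98.3 and 99.7 in aged WT and 46.3 and 85.9 in aged hCOL17A1. Krt1, Krt10 and Lor were well above background on all 12 HFSC arrays. Bulge markers were positive for 1 of 10 genes in Col17a1-cKO (median -0.22), 2 in aPKC-cKO (-0.21), 0 in young hCOL17A1 (-0.63), 3 in aged WT (-0.19) and 9 in aged hCOL17A1 (0.44). The T cell list had medians of 1.07 in Col17a1-cKO, 0.01 in aPKC-cKO, 1.0 in young hCOL17A1, -0.09 in aged WT and -0.47 in aged hCOL17A1, with summed levels of 6.01 and 7.33 in control, 11.5 and 7.31 in Col17a1-cKO and 9.92 and 10.9 in young hCOL17A1. The part of these lists in the Ly6 differences was not tested.

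**Figure D4:**
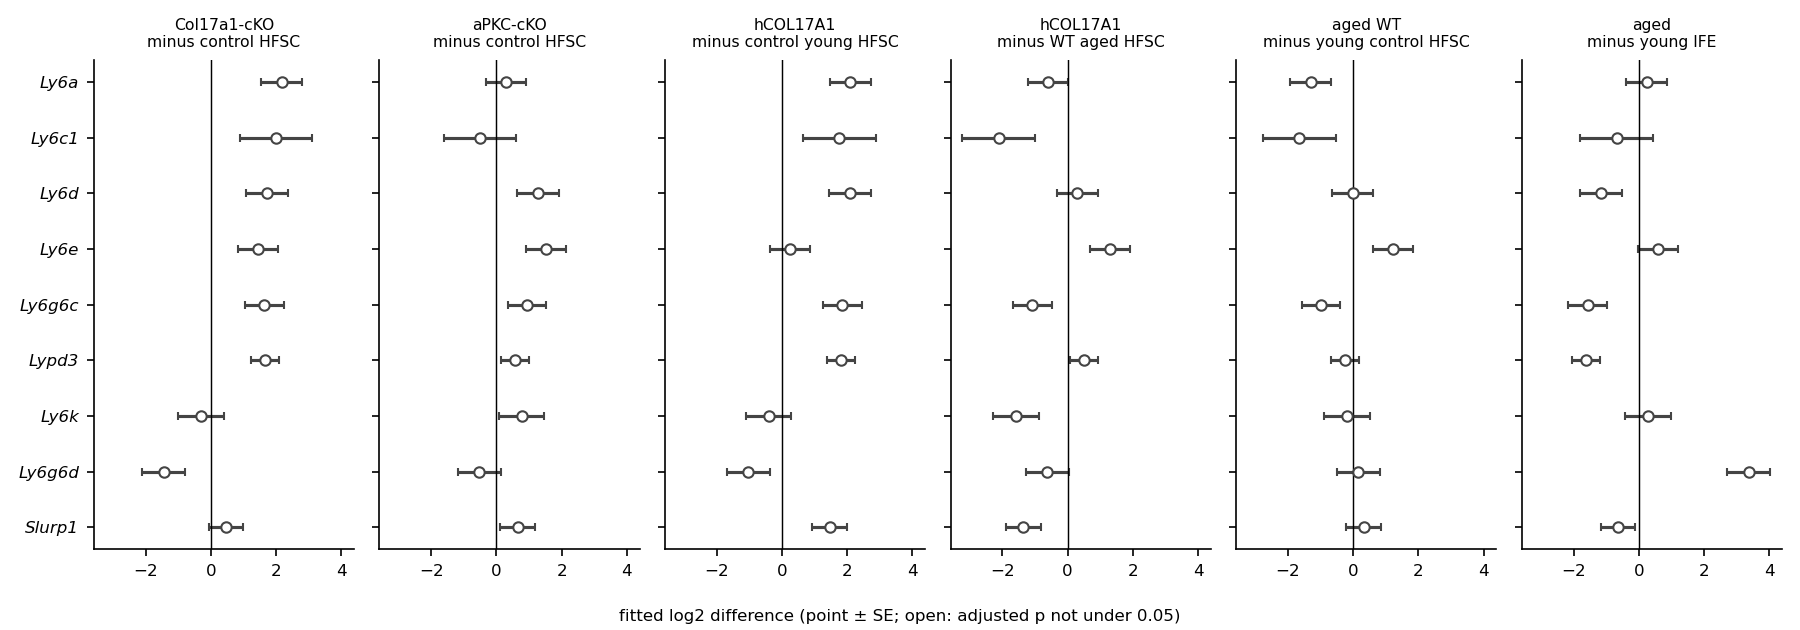
Fitted log2 differences (x axis, point and SE) of the 9 genes in 6 comparisons of genotype or age; every point is open because none passed the adjusted threshold. Ly6a lies at 2.17 in Col17a1-cKO and 2.10 in young hCOL17A1 against 0.30 in aPKC-cKO, and Ly6g6d at 3.37 in aged IFE.

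In IFE the transgene was compared with WT at both ages. In hCOL17A1 minus WT no member, against 1707 genes, reached an unadjusted limma p of 0.05 and no gene was called (0%), with differences from -1.33 (Ly6g6d) to 0.51 (Lypd3). Without either aged IFE array 90 genes were called. For Ly6a it was -0.71 (SE 0.62), with both pairs at -0.71.

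In aged minus young IFE, which lies within slide 2 with 2 arrays each, again no gene was called (0%), and 1990 had an unadjusted p under 0.05, Lypd3 and Ly6g6c among them. The count over all genes rested on single arrays: 238 were called without young WT IFE and 244 without aged WT IFE, and none of the 9 members in either. Ly6g6d was at background in both young groups, at -4.99 and -5.68, and well above it in both aged groups, at -0.97 and -2.95. The fitted difference was 3.37 (SE 0.66), at least 5.6-fold. These aged arrays are 2 of the 3 on which the probe was well above background, and so those that brought it through the filter; the value is a description with no test. With normexp background correction the difference was 0.83. Lypd3 differed by -1.63 (SE 0.43, adjusted p = 0.751) and Ly6g6c by -1.57 (SE 0.59, adjusted p = 0.751), with both aged arrays below both young ones (the share of all genes in this order was not counted). Without the young hCOL17A1 IFE array these were -1.10 and -1.0, and Ly6g6d was 4.02. The genes Ly6g6c and Ly6g6d lie next to each other and had opposite signs here. Differentiated keratinocyte markers had a median of -0.95 in the same comparison, with 2 of 14 positive and summed levels of 477 and 629 in young and 358 and 251 in aged IFE; the T cell list had a median of -0.98. The part of either was not tested. Ly6a differed by 0.24 and Ly6c1 by -0.68, within their scatter (SE 0.62 and 1.11).

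Members were also compared with each other over the 12 HFSC arrays, which share slides, conditions and the pairing of states; IFE was left out because it forms a separate cluster. Ly6a and Ly6c1 had r = 0.919 (Spearman's rho = 0.965), 0.847 without the 2 arrays farthest from the median of Ly6a, and 0.869 over the 8 young arrays. Ly6g6c and Lypd3 had r = 0.810 (rho = 0.804), and 0.944 over the young arrays. Ly6d followed Lypd3 (r = 0.874, rho = 0.853). Ly6a and Ly6e had r = -0.493 (rho = -0.455), which was -0.131 over the young arrays. These are descriptions of few arrays, given with no p.

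**Figure D5:**
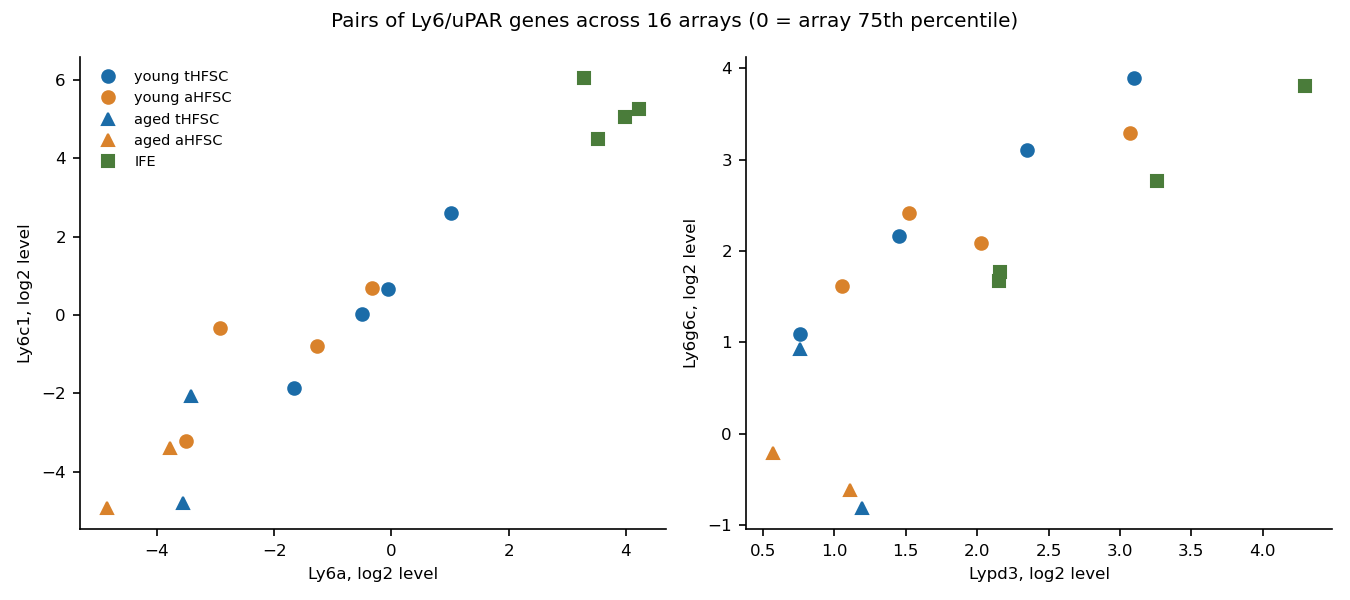
Level of Ly6c1 against Ly6a (left) and of Ly6g6c against Lypd3 (right), in log2 with the 75th percentile of the array at 0, 1 point per array: circles are young HFSC, triangles aged HFSC and squares IFE, blue for tHFSC and orange for aHFSC. On the left the aged HFSC arrays lie at the low end, with aPKC-cKO aHFSC among them, and the IFE squares form a separate group at the top right; on the right the 2 aged IFE squares lie within the HFSC range of Lypd3 and the 2 young ones, at 3.26 and 4.30, beyond its highest HFSC point, 3.10.

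Among the other genes with an official symbol, those whose level over the 12 HFSC arrays was most like that of Ly6a were Ppp2r2c (r = 0.947), Abca12 (0.931), Mettl7a2 (0.930), Ctla2a (0.919) and Gm16223 (0.907). Abca12 encodes the lipid transporter of lamellar granules in differentiating epidermis. Ppp2r2c and Abca12 were also among the 5 most alike with normexp and with quantile normalization. They stayed so without aged hCOL17A1 aHFSC, the 1 HFSC array of the 2 that stand apart. For Ly6d the nearest were Rdh7 (0.916), Vim (0.912), Plbd1 (0.899), Clca3a2 (0.898) and Krtap19-5 (0.890). Without that 1 array (11 HFSC arrays left), none of these 5 stayed among the nearest of Ly6d, and Mt4 (0.975) led. For Slurp1 the nearest were Kcna6 (0.948), A930017K11Rik (0.944), Ugt1a10 (0.930), Gnal (0.929) and Gpld1 (0.920). Only A930017K11Rik and Gpld1 of these stayed among its 5 nearest with quantile normalization. Without aged hCOL17A1 aHFSC only Kcna6 and A930017K11Rik stayed. No list was drawn for Slurp1 with normexp. Over all 16 arrays, IFE included, Ppp2r2c (0.977), Dll1 (0.965) and Ly6f (0.961) led for Ly6a, over points that form 2 clusters.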

How the data were processed

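The authors deposited, for each array, the scanner output of Agilent Feature Extraction 11.5.1.1, whose processed signal is a background-subtracted intensity on a linear scale, per the file headers. They also deposited a table of log2 values, which equal log2 of that signal less the 75th percentile of these log2 values on each array (99.97% of values within 0.01). RNA had been amplified with the Ovation Pico WTA system, per the labels. Here control and outlier spots were left out, spots of a probe were averaged in log2 and the 75th percentile was subtracted. The 9264 probes that the young control tHFSC file lacks were filled from the table. The 49792 probes well above background on at least 2 of 16 arrays were kept, and each gene was read from its brightest probe. The fit (limma 3.58.1, R 4.3.3; lmFit and eBayes with trend) had terms for 6 HFSC conditions, a common state shift, and level, age and transgene in IFE, with 6 residual degrees of freedom, or 5 with a state-by-age term. A fitted difference can differ from that of the plain means, since the state shift uses all 6 conditions. A lower bound sets the bright group's mean against, per array, the higher of the dim probe's signal and the lowest signal well above background. The members, the lists and the rule for named genes (all members; of the wider family those past the threshold, otherwise those with the smallest p; the 5 genes most alike) were chosen with earlier results of these data known. Named exceptions were chosen after their values were seen. The number of arrays limits the precision.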

Additional observations from a re-analysis of the deposited data

How the results depend on the processing

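The 37 differences of single members that were refitted are those with an unadjusted limma p under 0.05 in the main fit. None changed sign in 661 refits, which that choice made likely in advance, so this says nothing of member differences in general. Of these refits 37 lost a call and 6 gained one. For tHFSC minus IFE, where 5 members were called, 3 were called with probes above background on all arrays. In that setting Ly6a and the dim members were not tested, and Ly6c1 was read from its other probe. With slide as a block 1 member was called and within slide 2 there were 2, while leaving out 1 array at a time gave 3 to 5. For aHFSC minus IFE, where 4 were called, 2 were called with unpaired groups, 2 with slide as a block, 2 within slide 2 and 2 without the 2 arrays that stand apart; leaving out 1 array gave 2 to 5. Ly6a was called in both comparisons under every alternative in which it was tested. Leaving out an IFE array leaves its level to the additive fit of the other 3. Ly6d in aHFSC lost its call in 6 of 21 alternatives, Lypd3 in 9 of 21 for tHFSC and 8 of 21 for aHFSC, and Ly6e for tHFSC in 10 of 20, among them normexp. Ly6g6d in aHFSC minus IFE was called under 5 alternatives. Its probe would not have passed the filter without the aged IFE arrays, so these calls are not read as a test. The members called stayed at 0 in the other comparisons under all alternatives run, also where leaving out 1 array brought calls over all genes from 0 to 37 (aged hCOL17A1 HFSC), 244 (aged IFE) and 90 (hCOL17A1 IFE). Over all genes, aHFSC minus tHFSC gave 170 calls, 14 without the variance trend, 304 with unpaired groups, 111 without the 2 arrays that stand apart, 0 within either slide and 0 to 95 with 1 HFSC array left out. For tHFSC minus IFE (2031 calls) it was 804 in the arrays of the comparison alone, 143 with the slide block, 83 within slide 2 and 830 without the aged WT IFE array. For aHFSC minus IFE (1361 calls) these were 391, 180, 79 and 526, with 2402 under normexp, 664 unpaired and 799 without the arrays that stand apart. The causes were not tested. The state comparison pairs the arrays of a condition in all fits but the unpaired one. Dim probes (Ly6k, Ly6g6d and Slurp1) are limited by signal over background.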
